A study of Mus musculus with 6 samples.

Results

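Transcripts of 10 genes that control mitochondrial shape and removal were examined in germinal vesicle oocytes of wild-type (WT) and *Bnc1* mutant mice. The genes were chosen by their function, as a list of names given the mitochondrial defects that the study examined, and are the fusion genes *Mfn1*, *Mfn2* and *Opa1*, the fission genes *Dnm1l*, *Fis1* and *Mff*, and the mitophagy genes *Pink1*, *Bnip3*, *Bnip3l* and *Fundc1*. All 10 were found by symbol among the 17577 genes of the deposited tables, and 8 of them reached the mean of 1 FPKM that was required for testing, as did 10560 genes in all. FPKM scales the fragments of a gene by its transcript length and by the mapped fragments of the library, so levels of different genes can be set side by side per length.

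The study comprised 6 libraries, 3 from WT mice and 3 from Bnc1tr/tr mice, which carry on both alleles a frameshift that truncates the basonuclin 1 protein. All mice were 12 weeks old and of the C57BL/6 J strain, and all were given a gonadotropin injection before oocytes were taken from antral follicles. The allele is present in every cell of the animal, so a change that arises in the oocyte cannot be told apart from one that follows a change in its follicle. Each cDNA was made from polyadenylated RNA of a single oocyte by a modified Smart-seq2 procedure with oligo(dT) priming. A change in the amount of an RNA therefore cannot be told apart from a change in its polyadenylation. The labels do not say whether the oocytes of a group came from separate mice, so p-values measure the spread between these libraries.

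Mitochondria fuse and divide continuously. Mitofusins, encoded by *Mfn1* and *Mfn2*, join the outer membranes of neighbouring mitochondria, and OPA1 joins the inner membranes and shapes the cristae. The dynamin-related GTPase encoded by *Dnm1l* (DRP1) constricts and cuts mitochondria after it is recruited by outer membrane proteins, of which MFF is a main adaptor and FIS1 another. Damaged or surplus mitochondria are removed by mitophagy, either after the kinase PINK1 accumulates on depolarised mitochondria and starts their tagging with ubiquitin, or through the outer membrane receptors BNIP3, BNIP3L (NIX) and FUNDC1, which bind LC3 proteins of the autophagosome directly. *Bnip3* is a classical target of the hypoxia-inducible factors (HIF). Oocyte mitochondria are inherited by the embryo, and deletion of *Mfn1* or *Dnm1l* in mouse oocytes is known to disturb follicle growth. The study examined mitochondrial distribution and membrane potential in mutant oocytes, and the question here is how the transcripts of this machinery stood in the same genotypes.

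Among the 10 genes, *Bnip3* rose and *Fis1* fell in Bnc1tr/tr oocytes, while *Mfn1*, *Opa1*, *Dnm1l*, *Mff*, *Bnip3l* and *Fundc1* did not pass the threshold. *Bnip3* had 1.67 times the WT level and *Fis1* 0.572 times. *Bnip3l*, the paralog of *Bnip3*, was the more abundant of the pair in every WT library and the less abundant in every Bnc1tr/tr library. *Mfn2* and *Pink1* were at or below about 1 FPKM in both genotypes and did not enter the main fit.

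Promoter windows of the 2 genes that passed the threshold are shown because they surround annotated transcript starts of these genes. Which start was used in these oocytes was not measured. Each runs from 250 bases before to 50 bases after an annotated start, was taken from RefSeq in the build GRCm38.p6, and is written 5′ to 3′ on the strand of the gene. Capitals mark ACGTG, a form of the core of the HIF response element, searched on both strands. The first base of that core can also be G. GCGTG was not marked or counted, and it occurs in both windows printed here. The *Bnip3* window (chr7:138909457-138909756, minus strand) and the first *Fis1* window (chr5:136953025-136953324, plus strand) read as follows.
Bnip3: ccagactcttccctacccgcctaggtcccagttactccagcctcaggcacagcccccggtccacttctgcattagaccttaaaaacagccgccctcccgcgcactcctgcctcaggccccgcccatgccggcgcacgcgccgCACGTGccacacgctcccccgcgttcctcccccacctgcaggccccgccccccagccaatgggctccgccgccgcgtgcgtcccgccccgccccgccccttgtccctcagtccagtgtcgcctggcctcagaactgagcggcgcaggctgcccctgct
Fis1: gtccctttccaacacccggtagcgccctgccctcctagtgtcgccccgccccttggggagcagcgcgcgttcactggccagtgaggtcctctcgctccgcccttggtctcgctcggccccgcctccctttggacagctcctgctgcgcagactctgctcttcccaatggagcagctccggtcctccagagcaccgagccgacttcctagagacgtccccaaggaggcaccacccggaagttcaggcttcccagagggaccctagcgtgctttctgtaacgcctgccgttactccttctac

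The *Bnip3* window held a CACGTG that begins 108 bases before the start and contains ACGTG on both strands, so that its 2 matches overlap. Neither of the 2 annotated *Fis1* windows held ACGTG, though the printed one holds the uncounted GCGTG. Of 14 windows of 9 of the 10 genes, 3 held ACGTG, the others being 2 overlapping windows of *Mfn2*, and of all 32851 windows of this length 19.6% did. The core of the TEAD sites through which YAP acts, GGAATG, was found on neither strand of any of the 14 windows, and in 14.7% of all windows. *Bnip3l* had no window in the table used here. A match describes the letters only, and no binding was measured.

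Library facts that bear on these values were as follows. FPKM values carry no read counts, so depth was estimated from the steps between low FPKM values, which gave 12.8 to 21.7 M fragments (M, mega) per library, and 3 fragments on 1 kb of effective transcript correspond to 0.138 to 0.234 FPKM. *Bnc1*, the mutated gene, was lower in Bnc1tr/tr (7.13 ± 1.69 FPKM) than in WT libraries (14.0 ± 1.97 FPKM, SD, n = 3 each), with a log2 fold change of -0.89 (limma adjusted p = 0.0090), and transcript remained in all 3. All 12 oocyte markers reached 1 FPKM in at least 1 library, with sums of 7165 to 11206 FPKM. Of the 12, 4 were higher in every Bnc1tr/tr library than in any WT library. These were *Bmp15*, *Dazl* (438 against 245 FPKM on average), *Mos* and *Oosp1*. *Zp2*, *Zp3* (1932 against 3048 FPKM on average) and *Nlrp5* were lower in Bnc1tr/tr without overlap. Some markers of other cells moved with genotype as well. The 11 listed granulosa and cumulus markers summed to 43.3 to 60.4 FPKM in Bnc1tr/tr and 22.8 to 40 FPKM in WT libraries. Of the 11, 3 were higher in every Bnc1tr/tr library than in any WT library. They were *Fshr* (5.25 against 0.35 FPKM on average), *Kitl* (2.46 against 1.14 FPKM) and *Nr5a2* (5.45 against 3.72 FPKM). *Cyp19a1*, the largest part of the sum, overlapped between the groups (35.1 against 23.3 FPKM on average). *Inha* (0.693 against 3.42 FPKM) and *Hsd17b1* (0.197 against 0.787 FPKM) were lower on average in Bnc1tr/tr, also with overlap. *Amhr2*, *Wt1* and *Has2* were at 0.21 FPKM or less in all libraries. The defining *Foxl2* was at 0 in all Bnc1tr/tr libraries and at most at 0.03 FPKM in WT. The 5 immune markers summed to 1.70 to 53.4 FPKM against 1.39 to 2.94 FPKM, ranges that overlap. *Lyz2* was at 5.81, 47.97 and 0 FPKM in Bnc1tr/tr replicates 1 to 3 and at 0 in WT, where 4 of the 5 were at 0 throughout. *Cd68* was at 12.2, 3.64 and 0.96 FPKM in Bnc1tr/tr and at 2.94, 1.82 and 1.39 FPKM in WT libraries. *C1qa* (1.22 against 0 FPKM on average) and *Adgre1* (0.103 against 0 FPKM) were higher in Bnc1tr/tr without overlap. The 4 listed theca and stroma markers summed to 5.35 to 7.53 FPKM against 1.40 to 2.09 FPKM. Among them *Dcn* (6.11 against 1.62 FPKM on average) and *Pdgfra* (0.503 against 0.06 FPKM) were higher in Bnc1tr/tr without overlap. *Cyp17a1* overlapped, and *Col1a1* was at 0.01 FPKM or less in all libraries. The 3 endothelial markers summed to 3.69 to 6.67 FPKM against 7.62 to 10 FPKM, with *Cdh5* at 0.02 FPKM or less. The lower endothelial sum rested on *Pecam1* (4.01 against 9.11 FPKM on average), while *Kdr* was at 1.54, 0.64 and 0.53 FPKM in Bnc1tr/tr and at 0.10, 0.12 and 0.07 FPKM in WT libraries, higher without overlap. The number of genes detected moved with genotype too, with 15258 to 15736 genes above 0 in Bnc1tr/tr and 13896 to 14576 in WT libraries, and 10682 to 11035 against 9518 to 9748 genes at 1 FPKM or more. The part of these differences in the results was not tested.

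Which of the 10 genes differed between the genotypes was asked in a fit over all 10560 genes. A gene was called when it had both a limma adjusted p (Benjamini-Hochberg) under 0.05 and a change beyond 0.5 in either direction on the log2(FPKM + 1) scale. Of the 8 tested members 1 was called higher and 1 lower in Bnc1tr/tr, whereas 31.8% of all tested genes were called, 24.1% higher and 7.68% lower. The 2 called members are 25% of 8, a share near that background. Without the fold threshold the members past the adjusted p stayed at 1 higher and 1 lower, and the share of all genes was 32.1%. Groups did not overlap for 4 of the 8, *Bnip3* and *Opa1* being higher and *Fis1* and *Bnip3l* lower, against 46.8% of all tested genes (32.7% higher and 14.1% lower). Over the 8 members the median log2 fold change was -0.09 as deposited and -0.22 after upper-quartile scaling. Over all tested genes it was 0.15 as deposited but 0.02 after upper-quartile scaling, so values are also given relative to 0.15. The direction of calls over all genes depended on the scaling as well, with 75.8% of called genes higher as deposited, 63.3% after upper-quartile scaling and 46.6% after quantile normalization.

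**Figure D1:**
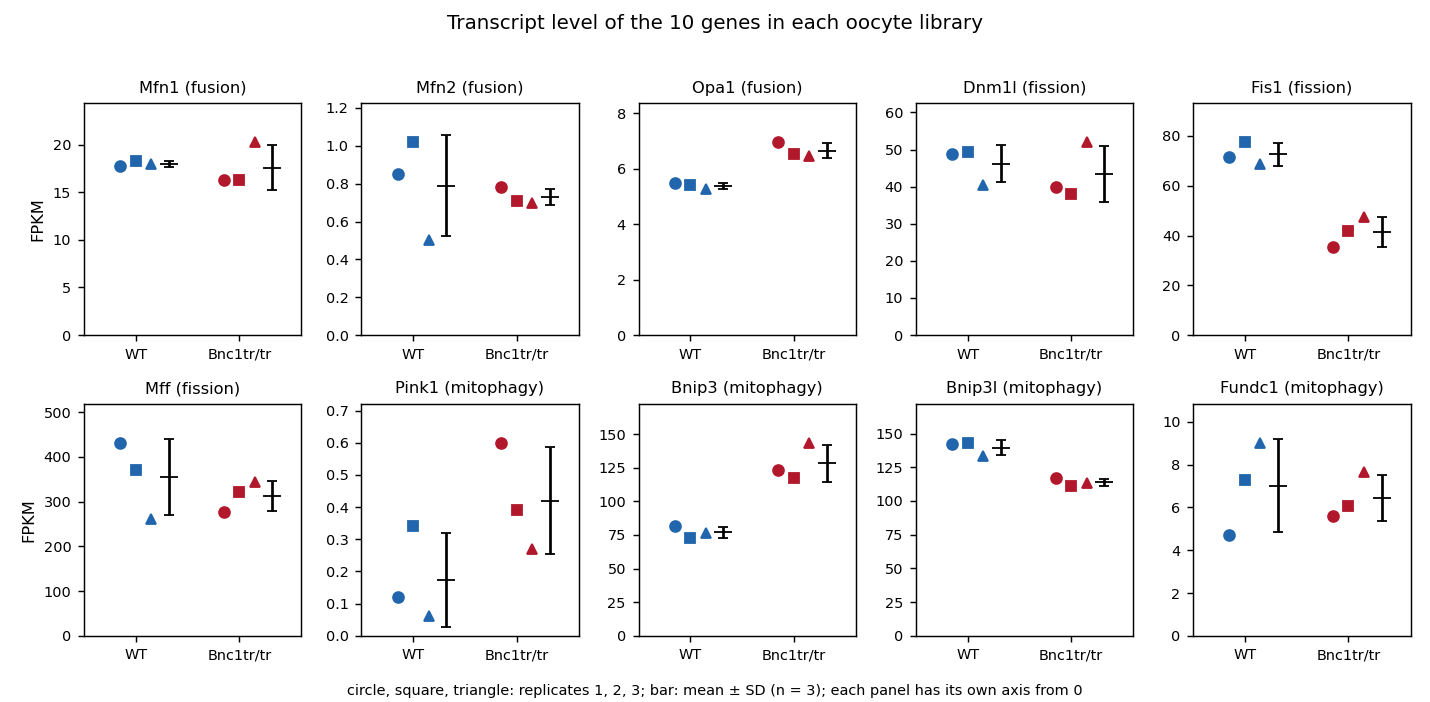
FPKM of each of the 10 genes (vertical axes, each from 0) in 3 WT libraries (blue) and 3 Bnc1tr/tr libraries (red), with replicates 1, 2 and 3 as circle, square and triangle and the mean ± SD as a black bar. The groups are apart for *Opa1*, *Fis1*, *Bnip3* and *Bnip3l*, and they overlap for the other genes.

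*Bnip3* (NCBI Gene ID 12176, chromosome 7, 138890836 to 138909519, minus strand, GRCm38) encodes a mitophagy receptor that is also a BCL2 family protein. Its FPKM was 123, 118 and 144 in the Bnc1tr/tr libraries (replicates 1 to 3, here and throughout), whereas WT libraries had 81.4, 72.8 and 76.4. Each Bnc1tr/tr library lay above each WT library. The means were 128 ± 13.6 and 76.8 ± 4.33 FPKM (SD, n = 3 each), which gave a log2 fold change of 0.73 (SE 0.16, limma adjusted p = 0.0090), or 0.58 relative to the median of all genes. *Bnip3* was called in all 14 alternatives that kept this fold threshold, with log2 fold changes from 0.59 to 0.79 and limma adjusted p from 0.0041 to 0.047. Of the 31-base words of its annotated transcripts 20.3% also occur in transcripts of other genes, chiefly *Gm16439*, so part of its reads could have been split between them, and *Gm45507* overlaps its exons on the opposite strand. Smart-seq2 libraries do not keep strand, so the reads of such a pair cannot be told apart.

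*Bnip3l* (NCBI Gene ID 12177, chromosome 14, 66985239 to 67008877, minus strand) encodes NIX, the receptor that clears mitochondria from maturing red cells. Its FPKM was 117, 111 and 114 in Bnc1tr/tr and 142, 143 and 133 in WT libraries. All 3 Bnc1tr/tr values were thus lower, and the spread within each group was small. The log2 fold change was -0.29 (95% interval -0.63 to 0.05), which did not pass (limma adjusted p = 0.17), and relative to the median of all genes it was -0.44. Without the filter on low values the adjusted p of limma was 0.040, still with a change under the fold threshold. Other genes share 23.7% of its 31-base words, mainly *Bnip3l-ps*.

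The balance of the 2 receptors was compared within libraries, where a scaling factor cancels apart from the pseudocount. The FPKM ratio of *Bnip3l* to *Bnip3* was 0.947, 0.946 and 0.791 in Bnc1tr/tr replicates 1 to 3 and 1.75, 1.97 and 1.75 in WT. The ratio was below 1 in each Bnc1tr/tr library and above 1 in each WT library. On the log2(FPKM + 1) scale the mean ratio was -0.16 ± 0.15 in Bnc1tr/tr and 0.85 ± 0.10 in WT (SD, n = 3 each), a difference of -1.02 (exact two-sided permutation p = 0.10, adjusted p = 0.15 over 3 ratios). A p of 0.10 is the smallest that 3 against 3 libraries allow. Over the 10 alternatives the difference ran from -1.06 to -0.93.

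*Fundc1* (NCBI Gene ID 72018, chromosome X, 17556564 to 17572325, minus strand) encodes a receptor of hypoxia-induced mitophagy. It had 5.61, 6.09 and 7.64 FPKM in Bnc1tr/tr and 4.72, 7.30 and 9.03 FPKM in WT libraries. The WT libraries alone spanned the whole range of both groups. The log2 fold change was -0.08, with a 95% interval from -0.60 to 0.45 (limma adjusted p = 0.83).

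*Pink1* (NCBI Gene ID 68943, chromosome 4, 138313409 to 138326307, minus strand) was at 0.60, 0.39 and 0.27 FPKM in Bnc1tr/tr and at 0.12, 0.34 and 0.06 FPKM in WT libraries. On its longest annotated coding transcript of 2375 bases these values correspond to about 17, 14 and 10 fragments and to about 4, 12 and 3 fragments. The mean in Bnc1tr/tr (0.42 FPKM) was 2.42 times that in WT (0.173 FPKM). With so few fragments in a library, and overlapping groups, no difference was detectable at this depth. A fit without the filter on low values gave a log2 fold change of 0.28 (limma adjusted p = 0.21). That fit adds 1 FPKM to each value, more than any *Pink1* value, which shrinks the change.

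*Fis1* (NCBI Gene ID 66437, chromosome 5, 136953275 to 136966234, plus strand), the gene of a tail-anchored outer membrane protein, had the largest change of the 8 tested genes as deposited. Its FPKM was 35.4, 41.9 and 47.4 in Bnc1tr/tr replicates 1 to 3 and 71.7, 77.6 and 68.6 in WT. The highest Bnc1tr/tr library stayed well below the lowest WT library. The means were 41.6 ± 6.01 and 72.6 ± 4.54 FPKM (SD, n = 3 each), and the log2 fold change was -0.80 (SE 0.17, limma adjusted p = 0.0076), or -0.94 relative to the median of all genes. *Fis1* was called in all 14 alternatives that kept the fold threshold, with log2 fold changes from -0.94 to -0.69 and limma adjusted p from 0.0040 to 0.040. None of its 31-base words occurs in another gene.

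The tested genes whose 6 centred log2 values lay nearest to those of *Fis1* were *Lonp1*, *Ccdc181* and *Ddx50*, at Euclidean distances of 0.126, 0.148 and 0.201. *Lonp1*, which encodes a protease of the mitochondrial matrix, had 8.84, 9.57 and 11.5 FPKM in Bnc1tr/tr and 16.8, 18.5 and 17.2 FPKM in WT. *Ccdc181* had 12.49, 15.12 and 17.53 FPKM in Bnc1tr/tr and 29.15, 28.02 and 24.54 FPKM in WT. For *Ddx50* the values were 10.51, 12.04 and 13.99 FPKM in Bnc1tr/tr and 24.11, 22.03 and 19.3 FPKM in WT. These distances are a description over 6 libraries.

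*Mff* (NCBI Gene ID 75734, chromosome 1, 82724890 to 82752394, plus strand), the gene of the main DRP1 adaptor, was the most abundant of the 10 in every library. It had 277, 320 and 343 FPKM in Bnc1tr/tr and 432, 371 and 262 FPKM in WT. The WT libraries varied more than the groups differed, and WT replicate 3 was below all Bnc1tr/tr libraries. The log2 fold change was -0.15 (95% interval -0.64 to 0.33, limma adjusted p = 0.62). *Mff* has 10 annotated coding transcripts of 435 to 2087 bases, and *C430014B12Rik* overlaps its exons on the opposite strand.

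*Dnm1l* (NCBI Gene ID 74006, chromosome 16, 16312230 to 16358959, minus strand), which encodes the fission GTPase itself, had 39.9, 38.0 and 52.0 FPKM in Bnc1tr/tr and 48.9, 49.2 and 40.4 FPKM in WT libraries. In both groups 1 library departed from the other two, and the groups overlapped. The log2 fold change was -0.10, with a 95% interval from -0.52 to 0.32 (limma adjusted p = 0.73). It shares 5.95% of its 31-base words with other genes, mainly *Gm13719*, and *Gm49521* overlaps its exons on the opposite strand.

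Between the 2 adaptors, the FPKM ratio of *Mff* to *Fis1* was 7.83, 7.64 and 7.23 in Bnc1tr/tr and 6.02, 4.79 and 3.82 in WT libraries. Every Bnc1tr/tr ratio exceeded every WT ratio. On the log2(FPKM + 1) scale the difference was 0.64, from 2.24 ± 0.33 in WT to 2.89 ± 0.05 in Bnc1tr/tr (SD, n = 3 each, exact two-sided permutation p = 0.10, adjusted p = 0.15 over 3 ratios). It ran from 0.48 without WT replicate 3 to 0.81 without WT replicate 1.

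**Figure D2:**
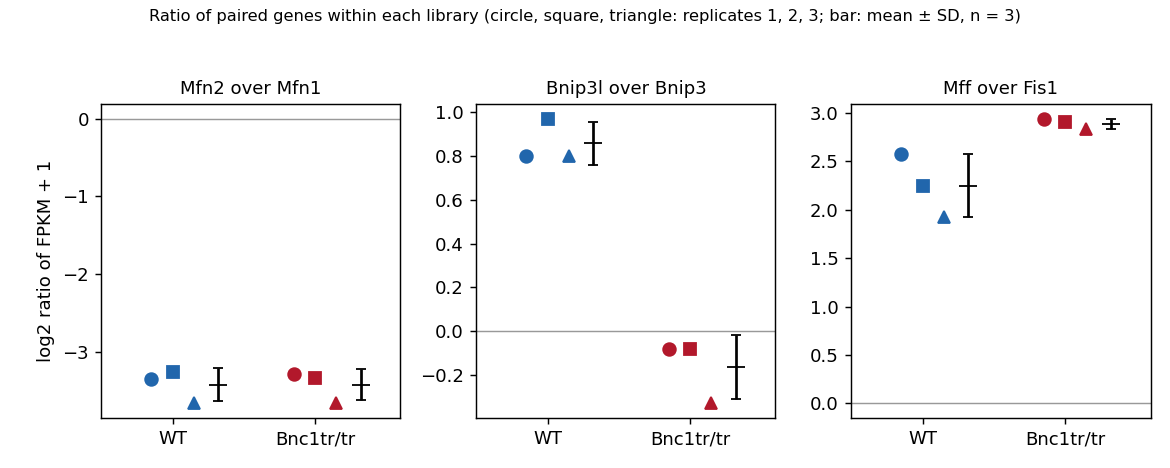
Log2 ratio of FPKM + 1 (vertical axes) of *Mfn2* to *Mfn1*, *Bnip3l* to *Bnip3* and *Mff* to *Fis1* within each of 3 WT (blue) and 3 Bnc1tr/tr (red) libraries, with replicates 1, 2 and 3 as circle, square and triangle, the mean ± SD as a black bar and a grey line at equal levels. The *Bnip3l* to *Bnip3* ratio is above the line in WT and below it in Bnc1tr/tr, while the *Mfn2* to *Mfn1* ratios of the groups coincide.

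*Mfn1* (NCBI Gene ID 67414, chromosome 3, 32529465 to 32579239, plus strand) was the main mitofusin transcript. It had 16.2, 16.3 and 20.3 FPKM in Bnc1tr/tr and 17.7, 18.3 and 18.0 FPKM in WT libraries. The WT values were nearly equal and fell inside the Bnc1tr/tr range. The log2 fold change was -0.04, with a 95% interval from -0.41 to 0.33 (limma adjusted p = 0.89).

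*Mfn2* (NCBI Gene ID 170731, chromosome 4, 147873599 to 147904704, minus strand) had 0.78, 0.71 and 0.70 FPKM in Bnc1tr/tr and 0.85, 1.02 and 0.50 FPKM in WT. These correspond to about 42 to 68 fragments on its longest coding transcript of 4341 bases, so it was detected in every library although it stayed under the mean of 1 FPKM. *Mfn2* made up 0.0278 to 0.0558 of the *Mfn1* level in FPKM. The log2 ratio differed by -0.0004 between the genotypes, less than its spread (SD of 0.20 and 0.21, exact two-sided permutation p = 1.0, adjusted p = 1.0 over 3 ratios).

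*Opa1* (NCBI Gene ID 74143, chromosome 16, 29579334 to 29654884, plus strand) had 6.97, 6.53 and 6.46 FPKM in Bnc1tr/tr and 5.48, 5.42 and 5.27 FPKM in WT. The groups were narrow and did not overlap. The log2 fold change was 0.26 (95% interval -0.08 to 0.60, limma adjusted p = 0.22), or 0.11 relative to the median of all genes, and quantile normalization gave -0.09.

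**Figure D3:**
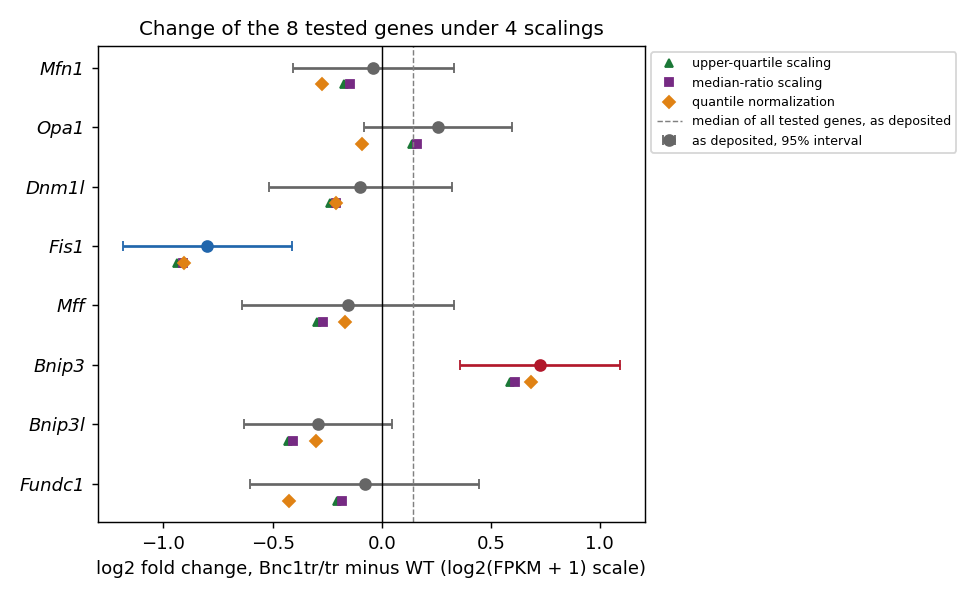
Log2 fold change of the 8 tested genes, Bnc1tr/tr minus WT on the log2(FPKM + 1) scale (horizontal axis), as deposited with the 95% interval of limma (circles, red where called higher, blue where called lower, grey where not called) and after 3 other scalings (triangles, squares and diamonds), with the median of all tested genes as a dashed line at 0.15. *Bnip3* and *Fis1* keep their side under every scaling, and *Opa1* crosses 0 after quantile normalization.

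By level, the 10 genes spanned from *Mff* at 355 FPKM to *Pink1* at 0.173 FPKM in WT oocytes. In WT the order was *Mff*, *Bnip3l*, *Bnip3*, *Fis1*, *Dnm1l*, *Mfn1*, *Fundc1*, *Opa1*, *Mfn2* and *Pink1*, in which *Bnip3* and *Fis1*, and *Fundc1* and *Opa1*, overlapped between libraries. In Bnc1tr/tr the order was *Mff*, *Bnip3*, *Bnip3l*, *Dnm1l*, *Fis1*, *Mfn1*, *Opa1*, *Fundc1*, *Mfn2* and *Pink1*, in which *Dnm1l* and *Fis1*, and *Opa1* and *Fundc1*, overlapped. *Mff* stood above 96.5% and *Bnip3l* above 90.7% of tested genes in WT, while *Mfn1* stood above 64.4% and *Opa1* above 40.7%. *Bnip3l* was the steadiest of the 10 in Bnc1tr/tr, with an SD of 2.37% of the mean, and *Pink1* the least steady in both groups (39.8% and 85.1%). The 3 fission genes together held 14.7 to 17.0 times the FPKM of the 3 fusion genes in Bnc1tr/tr libraries and 15.6 to 23.0 times in WT libraries, ranges that overlap.

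Other genes of mitochondrial dynamics and mitophagy were taken from 7 lists of 78 genes, of which 77 were listed and 65 tested. Of these, 5 were called higher and 5 lower in Bnc1tr/tr, or 15.4% of those tested against 31.8% of all tested genes. By direction, 24.1% of all tested genes were called higher and 7.68% lower. The median log2 fold change of the list genes was -0.0093, against 0.15 for all tested genes. The count of lower list genes depended on scaling and on single libraries. Upper-quartile and median-ratio scaling gave 10 of 65 each, and quantile normalization gave 13 of 65. Of all tested genes, these scalings called 1236 of 10538, 1139 of 10540 and 1877 of 10560 lower. The list count was 2, 1 and 3 without Bnc1tr/tr replicates 1, 2 and 3, and 2, 0 and 10 without WT replicates 1, 2 and 3. Genes called lower over all tested genes ran from 418 to 1041 in these fits. Without Bnc1tr/tr replicate 1 the count of higher list genes was 3, with 1969 higher among all tested genes.

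**Figure D4:**
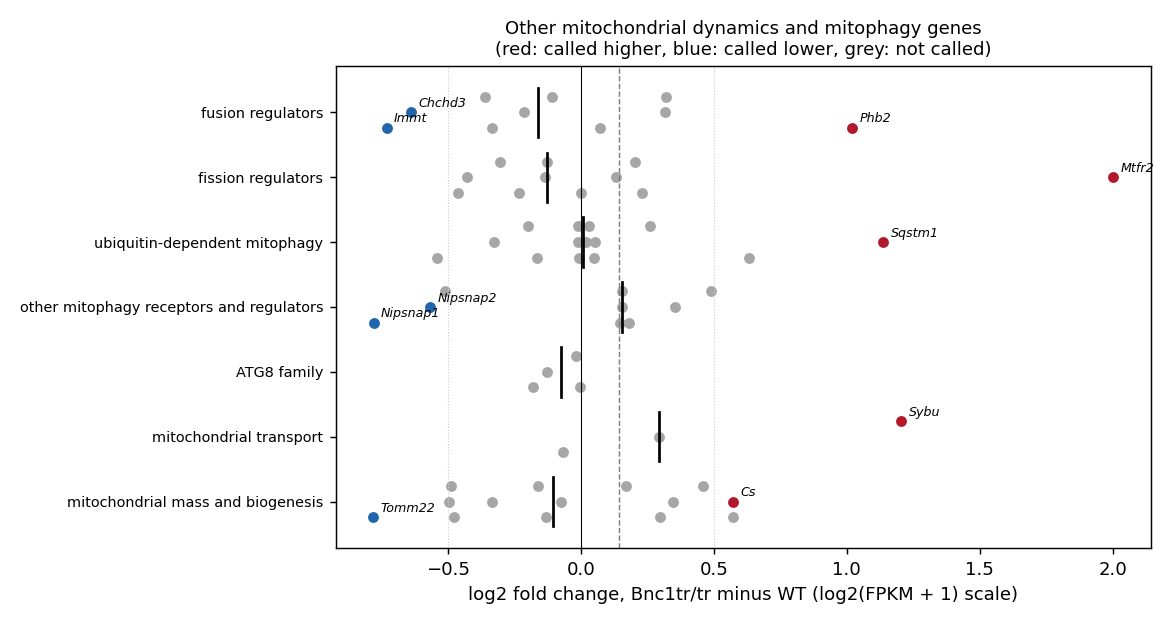
Log2 fold change, Bnc1tr/tr minus WT on the log2(FPKM + 1) scale (horizontal axis), of the tested genes of 7 lists (rows), called higher in red, called lower in blue and not called in grey, with the median of each list as a black bar, the median of all tested genes as a dashed line and the fold threshold as dotted lines. *Mtfr2* lies farthest from 0, at 2.0, and none of the 4 tested ATG8 family genes was called.

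Among fusion and cristae regulators, 1 of 10 tested genes was called higher and 2 lower. *Phb2*, which encodes prohibitin 2, an inner membrane scaffold that keeps long OPA1 forms stable and also binds LC3 during mitophagy, rose. It had 624, 573 and 460 FPKM in Bnc1tr/tr and 350, 292 and 191 FPKM in WT (log2 fold change 1.02, limma adjusted p = 0.012), and it was called in all 14 alternatives. *Immt* and *Chchd3*, which encode the cristae junction proteins MIC60 and MIC19, fell, with log2 fold changes of -0.73 (limma adjusted p = 0.032) and -0.64 (limma adjusted p = 0.019). *Immt* had 31.7, 25.6 and 29.9 FPKM in Bnc1tr/tr and 61.7, 51.5 and 36.1 FPKM in WT. *Immt* lost its call without Bnc1tr/tr replicate 1, 2 or 3, without WT replicate 1 or 2, without the filter and with a pseudocount of 0.1 FPKM. *Chchd3* lost its call without Bnc1tr/tr replicate 2 or 3 and without WT replicate 2. The proteases that cut OPA1 did not pass, with log2 fold changes of 0.07 for *Oma1* (limma adjusted p = 0.87) and 0.32 for *Yme1l1* (limma adjusted p = 0.35).

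Among fission regulators, 1 of 11 tested genes was called higher and none lower. *Mtfr2*, a member of the mitochondrial fission regulator family, had 34.4, 34.6 and 27.1 FPKM in Bnc1tr/tr and 10.3, 6.85 and 5.21 FPKM in WT. The lowest Bnc1tr/tr library was above the highest WT library, with a log2 fold change of 2.0 (limma adjusted p = 0.00029), and *Mtfr2* was called in all 14 alternatives, though other genes hold 13.1% of its 31-base words. *Mief1*, the gene of the DRP1 receptor MiD51, had 4.09, 3.78 and 5.26 FPKM against 7.48, 6.05 and 5.65 FPKM in WT, a log2 fold change of -0.46 (limma adjusted p = 0.085). It was called in 3 of 14 alternatives, which were the 3 other scalings. *Mief2* was at 0 to 0.23 FPKM in all libraries and was not tested.

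Among genes of ubiquitin-dependent mitophagy, 1 of 14 tested genes was called higher and none lower. *Sqstm1*, the gene of the ubiquitin-binding autophagy adaptor p62, had 16.7, 9.26 and 11.2 FPKM in Bnc1tr/tr and 7.44, 4.76 and 3.26 FPKM in WT (log2 fold change 1.14, limma adjusted p = 0.016). It lost its call without Bnc1tr/tr replicate 1 (limma adjusted p = 0.058) and without the filter on low values (limma adjusted p = 0.053). *Usp30*, whose product removes ubiquitin from mitochondria, had 19.1 ± 0.821 FPKM in Bnc1tr/tr and 18.9 ± 1.63 FPKM in WT (SD, n = 3 each), and its log2 fold change of 0.02 had a 95% interval from -0.34 to 0.38.

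Among other mitophagy receptors and regulators, none of 9 tested genes was called higher and 2 lower. These were *Nipsnap1* and *Nipsnap2*, whose products are exposed on depolarised mitochondria and recruit autophagy adaptors, with log2 fold changes of -0.78 (limma adjusted p = 0.017) and -0.57 (limma adjusted p = 0.026). *Nipsnap1* had 24.0, 25.8 and 30.0 FPKM in Bnc1tr/tr and 53.5, 51.2 and 35.8 FPKM in WT. *Nipsnap2* had 61.5, 59.4 and 70.3 FPKM in Bnc1tr/tr and 87.3, 99.5 and 97.6 FPKM in WT. Both lost the call without Bnc1tr/tr replicate 1 or 2 and without WT replicate 2, and *Nipsnap1* also without WT replicate 1. The ATG8 family, to which LC3 belongs and which the receptors bind, had 4 tested genes and none called. *Gabarapl1*, also of this family, was under the mean of 1 FPKM and was not tested. It was at 1.36, 1.56 and 0.04 FPKM in Bnc1tr/tr and at 0, 0.16 and 0.03 FPKM in WT libraries.

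Among mitochondrial transport genes, 1 of 3 tested genes was called higher. *Sybu*, the gene of syntabulin, a linker between kinesin and its cargo, had 7.61, 5.34 and 4.64 FPKM in Bnc1tr/tr and 2.27, 1.75 and 1.79 FPKM in WT (log2 fold change 1.21, limma adjusted p = 0.0020), and it was called in all 13 alternatives in which it was tested. Among genes of mitochondrial mass and biogenesis, 1 of 14 tested genes was called higher and 1 lower. *Tomm22*, a receptor of the outer membrane import pore, had 55.1, 84.4 and 80.7 FPKM in Bnc1tr/tr and 144, 118 and 114 FPKM in WT (log2 fold change -0.78, limma adjusted p = 0.020), and it lost its call without Bnc1tr/tr replicate 1 or WT replicate 1 or 2. *Cs*, the gene of citrate synthase, had 82.0, 65.8 and 67.6 FPKM in Bnc1tr/tr and 55.6, 43.8 and 44.4 FPKM in WT (log2 fold change 0.57, limma adjusted p = 0.037). *Cs* was called in 5 of 14 alternatives and in none of the 3 other scalings, and of the fits that left out 1 library only the fit without WT replicate 1 called it.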

How the data were processed

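RNA-seq libraries of oocytes (3 Bnc1tr/tr, 3 WT, grouped by the genotype in the labels) were used. The authors deposited 1 table per library in FPKM, rounded to 2 decimals. The submitters' processing notes name HISAT2 2.0.4, Bowtie2 2.2.5, RSEM 1.2.12 and GRCm38.p6 with no role or order. The annotation and any gene filter are not given in the sources used here. Because FPKM is a share of each library, fewer fragments of 1 gene and more of others cannot be told apart. In all, 25 symbols that had become dates were restored through the NCBI Gene ID.

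Genes whose 6 libraries averaged 1 FPKM or more entered limma 3.58.1 (R 4.3.3) as log2(FPKM + 1), a scale that understates changes of low genes, with Benjamini-Hochberg adjustment over all of them. Calls required an adjusted p under 0.05 with a log2 change beyond 0.5 either way. Ratios of paired genes were tested over libraries by exact permutation (two-sided). The fit and the depth estimate were tested on simulated data. Depth came from genes with 1 annotated transcript. Gene coordinates, transcript lengths and 31-base words came from GENCODE M21 (GRCm38), and promoters from RefSeq. Named were all 10 members, called genes of the lists (up to 3 per direction and list), further genes fixed by name (1 of them is not reported here), and the 3 genes most like the called member with the largest change. The members and lists were chosen with earlier results of these data known.

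Alternatives were another pseudocount, other filters, 3 scalings, trend and robust variances, a larger fold threshold, the replicate number as a block, and leaving out each library. Figures were drawn with matplotlib 3.10.9.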

Additional observations from a re-analysis of the deposited data

How the results depend on the processing

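*Bnip3* and *Fis1* kept their direction and an adjusted p under 0.05 in 14 of 14 alternatives each. Over all 10 members and *Bnc1*, 128 alternative values comprised 121 with direction and side of the threshold kept, 1 stronger and 6 reversed. With an absolute log2 fold change over 1, 0 members were called higher and 0 lower, 0 list genes lower, and 1418 and 259 of all genes higher and lower, since this threshold is stricter by construction. List genes called lower were 10 under upper-quartile and 10 under median-ratio scaling, and 13 with quantile normalization, of 65 tested. Under median-ratio scaling 1139 of all genes were called lower. Of all genes, 1413 were higher with a mean of at least 5 FPKM, where fewer genes were tested, 1236 were lower under upper-quartile scaling, and 1637 were higher and 1877 lower under quantile normalization.

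When 1 library was left out, genes called lower ran from 418 to 1041 and genes called higher from 1905 to 2498, list genes lower from 0 to 10 and higher from 3 to 5. Log2 fold changes ran from -0.14 to 0.013 for *Mfn1*, from -0.30 to 0.10 for *Fundc1* and from -0.36 to 0.00087 for *Mff*, and the *Mfn2* to *Mfn1* ratio difference from -0.12 to 0.11. *Opa1* was at -0.092 under quantile normalization, and the *Mfn2* to *Mfn1* difference was 0.077 under upper-quartile and 0.063 under median-ratio scaling. That ratio has no value under quantile normalization, which was run on the tested genes only.

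Same-numbered libraries correlated at 0.28, -0.034 and 0.12 in their deviations from the group means, and not every library correlated best with its own number, so the numbers were not taken to pair the libraries. With the replicate number as a block, 1 member was called higher and 1 lower, and 2781 and 952 of all genes. Except where given, the cause was not tested. Depth limits *Pink1*, whose lowest library rests on about 3 fragments.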
